A study of Mus musculus with 4 samples.

Results

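T11-Apobec mammary tumours grown in mice and given checkpoint antibodies were compared with T11-Apobec tumours given none, by single-cell RNA sequencing. The cells compared were those of 2 libraries, 1 per group, that had at least 200 detected genes, at least 500 unique molecular identifiers (UMIs, each standing for 1 captured RNA molecule) and no more than 10% mitochondrial UMIs. These filters kept 6131 of 6504 treated and 10321 of 11304 untreated barcodes, together 16452 of the 28200 kept cells of the series. Both groups were female Balbc mice with T11-Apobec cells injected into the number 4 mammary gland, and mice entered the study by random assignment when the tumour reached 5 mm in diameter. The treated group received anti-PD1 at 10 mg/kg and anti-CTLA4 at 100 µg biweekly and was collected at day 7. The untreated group received no antibody, and the age of the mice, the number of tumours behind each library and the collection day of the untreated tumours are not given in the sources used here. The series also holds a treated and an untreated library of a second mammary tumour model, KPB25Luv, with 5273 and 6475 kept cells, which are used below only for values set side by side.

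PD-1 is an inhibitory receptor of activated T cells that binds PD-L1 (Cd274) and PD-L2 (Pdcd1lg2), and CTLA-4 competes with the co-stimulatory receptor CD28 for CD80 and CD86. Antibodies against both receptors release T cells from these signals. Activated T and NK cells secrete interferon-gamma, whose receptor signals through JAK1 and JAK2. The signal reaches promoters at gamma-activated sites (GAS) and at interferon-stimulated response elements (ISRE), the latter bound by factors of the IRF family among others. Known target genes include the guanylate-binding proteins (GBP) and immunity-related GTPases (IRG), the class I antigen presentation machinery, the class II activator Ciita, and the chemokines Cxcl9 and Cxcl10, which attract T cells through CXCR3.

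Each group was 1 library, so no spread between animals could be measured and no p-value is given. Intervals below are 95% intervals for counting error only: exact Clopper-Pearson intervals for shares of cells, and exact conditional intervals for ratios of summed UMIs. A gene was called higher or lower when its whole interval lay beyond a 1.5-fold difference, provided that it had 20 or more UMIs when both libraries were summed. The treated library held 47131040 UMIs over all barcodes and 46226362 in kept cells, with a median of 4143 per kept cell. The untreated library held 98475778 and 96673906, with a median of 7815 per kept cell. The libraries had 82 barcodes in common, 1.34% of the smaller library.

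Cells were placed in 14 classes by UMIs of marker genes. T cells (Cd3d, Cd3e, Cd3g or Trac) were 2940 of 6131 cells in the treated library, 48.0% (46.7% to 49.2%), against 327 of 10321, 3.17% (2.84% to 3.52%), in the untreated library, a share 15.1-fold higher (13.5 to 17). B cells were 12.8% against 1.28%, 9.94-fold higher (8.28 to 12.1, a log2 ratio of 3.31). That ratio moved with the processing, to 4.90 on the log2 scale with cells thinned to 1000 UMIs, 4.52 with at least 500 genes per cell, 4.36 with a stricter class rule and 2.13 among immune cells, and stayed higher in each. Thinning left out every cell under 1000 UMIs, 164 treated and 514 untreated cells. It kept 773 of 782 treated but 46 of 132 untreated B cells. The part of this uneven loss in the ratio of 4.90 was not tested. Plasma cells, which secrete antibody, were 38 against 2 cells. Plasmacytoid dendritic cells, the specialised producers of type I interferon, were 1.03% against 0.184%, 5.48-fold higher (3.30 to 9.88). Lymphoid classes and plasmacytoid dendritic cells thus made up a larger part of the treated library.

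The tumour/mesenchymal class, defined by the neomycin-resistance transcript of the line and by mesenchymal genes such as Prrx1, Twist1 and Sparc, was 747 cells, 12.2% (11.4% to 13%), in the treated library and 5605 cells, 54.3% (53.3% to 55.3%), in the untreated library, 4.45-fold lower (4.13 to 4.82). Macrophages and monocytes were 12.8% against 25.6%, 1.99-fold lower (1.84 to 2.16), and neutrophils were 0.864% against 1.87%, 2.15-fold lower (1.59 to 2.99, a log2 ratio of -1.10). The neutrophil difference was within counting error with cells thinned to 1000 UMIs, at a log2 ratio of -0.26 (-1.22 to 0.60), and with at least 500 genes per cell, at -0.50 (-1.54 to 0.42). Thinning kept only 36 of the 193 untreated neutrophils, since cells under 1000 UMIs were left out. Dendritic cells, the main antigen-presenting cells for naive T cells, were 16 against 54 cells, 1.96-fold lower (1.13 to 3.75). Vessel-associated cells were scarce after treatment. Endothelial cells were 5 against 341 cells, 36.9-fold lower (17.2 to 126). Pericytes, which line small vessels, were 0 against 61 cells, and the interval for 0 of 6131 reached up to 0.0601%. Fibroblasts were 6 against 66 cells, a log2 ratio of -2.60, or -1.32 with thinned cells. Epithelial cells were 50 against 57 cells, a ratio of 1.48 (0.989 to 2.20). These are shares of the cells recovered, and whether dissociation released each class equally in both tumours was not tested.

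**Figure D1:**
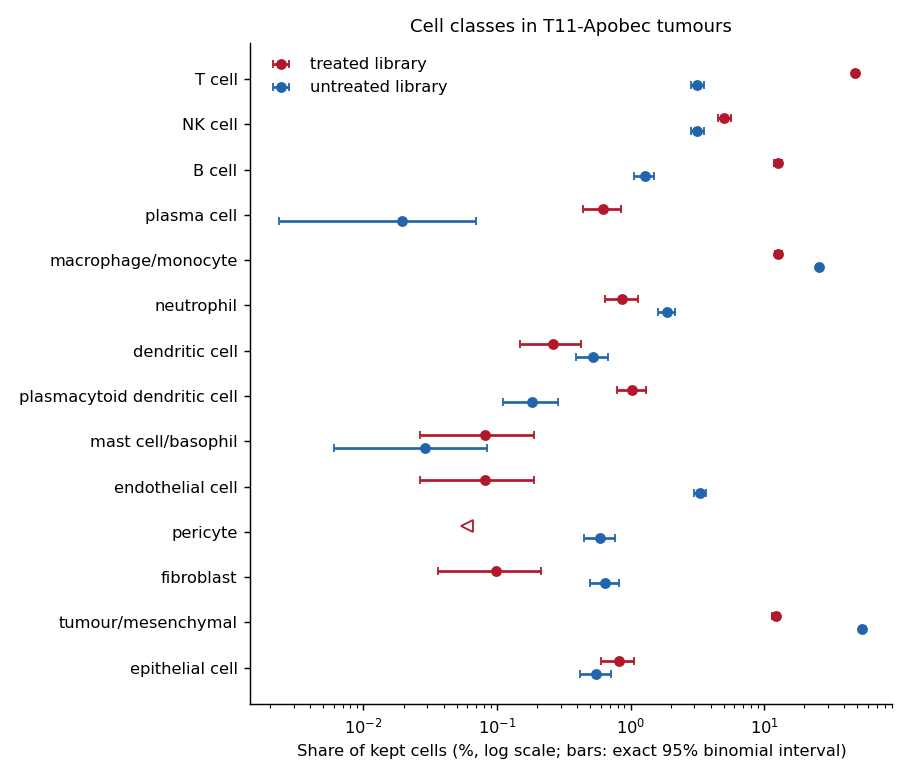
Share of kept cells in each of 14 marker-defined classes (x axis, percent, log scale) in the treated (red) and untreated (blue) T11-Apobec library, with exact 95% binomial intervals for counting error as bars and an open triangle at the upper end of the interval where no cell was found. T cells stand at 48.0% against 3.17%, and tumour/mesenchymal cells at 12.2% against 54.3%.

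The NK cell share depended on the denominator. NK cells were 5.04% of all kept treated cells and 3.17% of untreated ones, 1.59-fold higher (1.36 to 1.86). Immune cells together were 81.4% and 35.8% of the libraries, and of immune cells NK cells were 6.19% against 8.85%. On the same immune denominator, macrophages and monocytes were 15.8% against 71.4%, and the log2 ratio of the T cell share was 2.73 in place of 3.92. In the KPB25Luv model T cells were 75.0% against 17.3% of kept cells, 4.34-fold higher, and B cells were 12.6% against 2.63%. In both models the T and B cell shares were higher in the treated library, and whether the sizes differ between models was not tested.

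The depth per cell differed between the libraries and in opposite directions by class. The median was 25500 against 12602 UMIs in tumour/mesenchymal cells, 8985 against 3980.5 in macrophages and monocytes, 3724.5 against 1687 in T cells, 1618 against 885.5 in B cells and 1922 against 2350 in NK cells. Levels below are therefore given as CPM: the UMIs of a gene summed over the cells of a class and scaled to 1000000 UMIs of that class. Genes of neighbouring families that are nearly identical (Tgtp1 and Tgtp2, the H2-Q genes, Ccl3 and Ccl4, the GBP genes) may have had their UMIs split or dropped by the counting, which makes the single values less certain.

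In tumour/mesenchymal cells, 4.88% of 13224 genes tested were called higher after treatment and 3.41% lower (645 and 451 genes), with a median log2 ratio over all tested genes of -0.05. Among genes whose CPM in this class was at least 0.5 of that over all cells, a filter chosen after seeing the data, the balance turned to 343 higher and 395 lower. Known targets of interferon-gamma were higher as a group. Of the 17 GBP and IRG genes, whose products attack intracellular vacuoles and pathogens, 16 reached the UMI minimum and all 16 were called higher, with a median log2 ratio of 4.08. With treated values first here and below, Iigp1 was at 428 and 19.9 CPM (log2 ratio 4.42), Gbp2 at 164 and 18.8 (3.13), Gbp4 at 119.7 and 3.26 (5.2), and Igtp at 126 and 6.64 (4.25). The smallest log2 ratio in the family was 2.19, for Gbp9.

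Most promoters of this family found in the table held letters matching the elements through which interferon signals are known to act, and windows chosen to show such matches are given here. They are from the C57BL/6J reference promoters of RefSeq (GRCm38.p6), read 5′ to 3′ on the strand of the gene. Capitals mark a GAS match (TTCNNNGAA) or an ISRE match (GAAA, any 2 bases, GAAA), each searched on both strands from 250 bases before to 50 bases after the annotated start. The first 4 windows carry a GAS match followed after 2 bases by an ISRE match, the Gbp2 window carries an ISRE match on the opposite strand, and the Irf1 window carries a GAS match alone.
Tgtp1, chr11:48992294-48992354, minus strand: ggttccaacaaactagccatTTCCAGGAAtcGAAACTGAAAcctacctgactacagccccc
Tgtp2, chr11:49064253-49064313, minus strand: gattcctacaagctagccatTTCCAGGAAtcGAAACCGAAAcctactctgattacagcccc
Igtp, chr11:58199491-58199551, plus strand: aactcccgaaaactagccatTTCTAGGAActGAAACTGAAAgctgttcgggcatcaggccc
Irgm2, chr11:58214882-58214942, plus strand: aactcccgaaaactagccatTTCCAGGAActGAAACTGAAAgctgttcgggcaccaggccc
Gbp2, chr3:142620584-142620643, plus strand: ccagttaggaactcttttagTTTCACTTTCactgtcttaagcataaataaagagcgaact
Irf1, chr11:53769904-53769963, plus strand: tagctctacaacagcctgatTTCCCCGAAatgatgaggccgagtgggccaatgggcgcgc

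Counted from the annotated start, the first motif began at position -88 in Tgtp1, -81 in Tgtp2, -45 in Igtp, -75 in Irgm2, -59 in Gbp2 and -90 in Irf1. Of the 17 GBP and IRG genes, 11 had a promoter in the table; 10 of these held a match to either motif and 6 held both. Among all 32851 mouse promoters in the table, 8.30% held a GAS match, 3.44% an ISRE match and 11.3% either. A gene can have several promoters. Of the 12744 promoters of genes tested in tumour/mesenchymal cells, 9.79% held either. The share was 22.1% of the 575 promoters of genes called higher and 7.45% of the 376 promoters of genes called lower. Among genes higher in these cells, the promoters of C1s1, Ubd, H2-DMb1, Cxcl9, Cd274, Psmb9, Tap1, H2-D1, H2-Aa and the family member Ifi47 held no match in this window, which says only that these letters are not there. A match is a description of the letters in the window and not evidence that a factor binds there.

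Upstream of these targets, 8 of 15 genes of the interferon-gamma receptor and signalling list were called higher in tumour/mesenchymal cells and none lower. Irf1, an interferon-induced transcription factor, was at 85.1 and 31.3 CPM (1.44), Nlrc5, the activator of class I genes, at 13.2 and 2.34 (2.49), and Socs1, a feedback inhibitor of JAK kinases, at 57.9 and 18.3 (1.66). The receptor genes and the kinase gene Jak1 were not called: Ifngr1 was at 67.6 and 68.3 CPM, Ifngr2 at 97.5 and 107, and Jak1 at 67.8 and 72.9. Ifng itself, which encodes the ligand, was called higher in this class, at 1.08 and 0.0263 CPM (5.07, 3.33 to 8.50). That ratio rests on 21 and 2 UMIs, and Ifng is among the 8 genes called. The 4 T cell markers summed to 58.0 and 3.25 CPM in the same class, and treated T cells had Ifng at 104 CPM. The part of T cell transcripts in this Ifng value was not tested. Irf1, Nlrc5 and Socs1 lie below the receptor.

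Antigen presentation genes were higher in the same cells. Of 22 class I genes 20 were called higher, with a median log2 ratio of 1.56: B2m, the invariant light chain, at 6536 and 3024 CPM (1.11), H2-D1 at 2973 and 785 (1.92), the peptide transporter Tap1 at 82.3 and 9.99 (3.04), and the immunoproteasome subunit Psmb9 at 305 and 34.4 (3.15). Of 9 class II genes measured 8 were called higher, with a median of 4.18. Ciita was at 20.8 and 0.552 CPM (5.22), Cd74, the invariant chain, at 1410.1 and 30.3 (5.54; 5.50 to 5.59), H2-Aa at 398 and 25.8 (3.95) and H2-DMb1, which helps to load peptide, at 127 and 3.02 (5.39). H2-Oa was not called, at 0.513 and 0.171 CPM. Cells outside the antigen-presenting lineages usually carry little class II, and Cd74 had a UMI in 92.4% of treated against 16.5% of untreated tumour/mesenchymal cells.

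Depth alone raises such a share, so cells were thinned to 1000 UMIs each. At that depth 47.7% (44.0% to 51.3%) of treated tumour/mesenchymal cells had UMIs of at least 2 class II genes, against 0.932% (0.697% to 1.22%) of untreated ones, and 31.4% against 93.7% had none. For the GBP and IRG genes the shares were 31.0% (27.7% to 34.5%) and 1.61% (1.30% to 1.98%). For comparison, at least 2 cell cycle genes had UMIs in 81.2% and 79.2% of the same cells. The class II and GBP signals were therefore spread over a large part of the treated cells rather than held by a few.

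**Figure D2:**
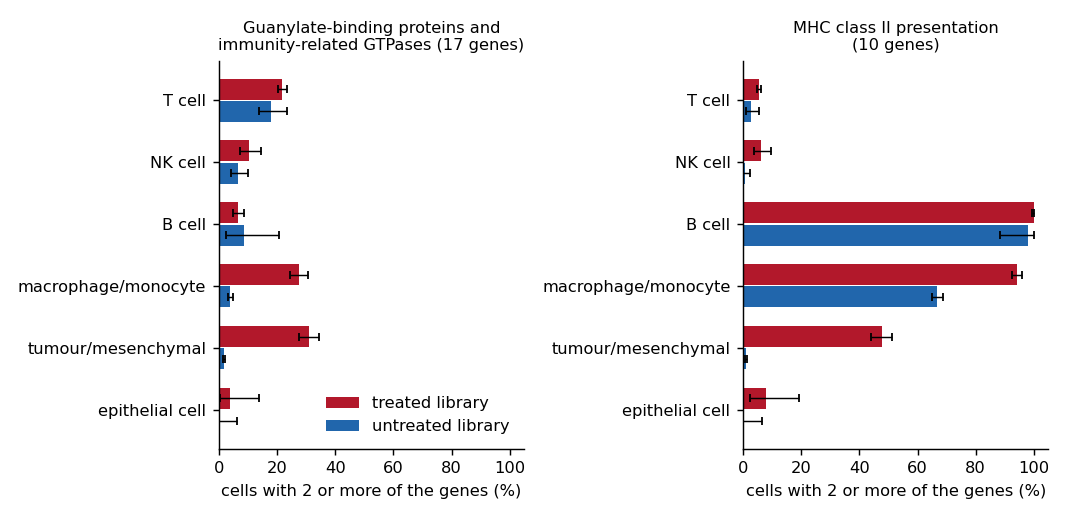
Share of cells (x axis, percent) with UMIs of 2 or more genes of the GBP and IRG list (left) and of the class II list (right), after thinning every cell to 1000 UMIs, in 6 cell classes of the treated (red) and untreated (blue) library, with exact 95% binomial intervals. In tumour/mesenchymal cells the class II share is 47.7% against 0.932%, and in T cells 5.43% against 2.64%.

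Free RNA and doublets can carry class II transcripts into other cells, and the values that bear on this were as follows. The 12 macrophage markers summed to 92.7 CPM in treated and 117 CPM in untreated tumour/mesenchymal cells, with the complement gene C1qa at 22.2 and 24.3 CPM. Cd74 UMIs per C1q UMI were 29.8 in treated tumour/mesenchymal cells, against 0.942 in treated macrophages and monocytes, 111 in B cells and 103 in plasmacytoid dendritic cells. Cd74 UMIs per UMI of the B cell genes Cd79a and Cd79b were 450.2 in treated tumour/mesenchymal cells, against 3.81 in B cells and 73.5 in plasmacytoid dendritic cells. Neither ratio can speak to dendritic cells, which in the untreated library had 174 Cd74 UMIs per C1q UMI and no Cd79a or Cd79b UMI. The 10 dendritic cell markers summed to 235 CPM in treated and 272 CPM in untreated tumour/mesenchymal cells, and the part of dendritic cells was not tested. The 4 T cell markers summed to 58.0 and 3.25 CPM, so lymphocyte transcripts were higher in the treated tumour/mesenchymal cells. Restricting the class to cells with a UMI of the neomycin-resistance transcript, an alternative chosen after seeing the data, left 372 of 747 and 1580 of 5605 cells. There the median log2 ratio was 3.97 for GBP and IRG genes and 3.99 for class II genes, with Cd74 at 1095 and 28.3 CPM and Cd3e at 11.1 and 0.304.

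The 6 genes with the highest ratios in tumour/mesenchymal cells under the naming rule were C1s1, Ly6a, Apol6, Ubd, H2-DMb1 and Tgtp1. C1s1, a protease of the first complement component (chromosome 6, 124530345 to 124542359, minus strand), was at 29.1 and 0.355 CPM, 80.5-fold higher. Ly6a, the GPI-anchored surface protein Sca-1, was at 643 and 13 CPM (5.63) with a UMI in 86.9% against 8.35% of cells. Ubd, which encodes the ubiquitin-like modifier FAT10 (chromosome 17, 37193892 to 37196095, plus strand), was at 198 and 4.17 CPM (5.57). Apol6 was at 10.3 and 0.118 CPM (6.37), and Tgtp1 at 19.1 and 0.355 (5.73). Both Ly6a and Ubd are known interferon-inducible genes. In the list of interferon-inducible membrane and ubiquitin-like proteins, 10 of 14 measured genes were called higher, with a median of 1.58. That list includes Ly6a, Ubd and Apol6 and was chosen with earlier results of these data known. Its count is therefore not separate from the ranking above.

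**Figure D3:**
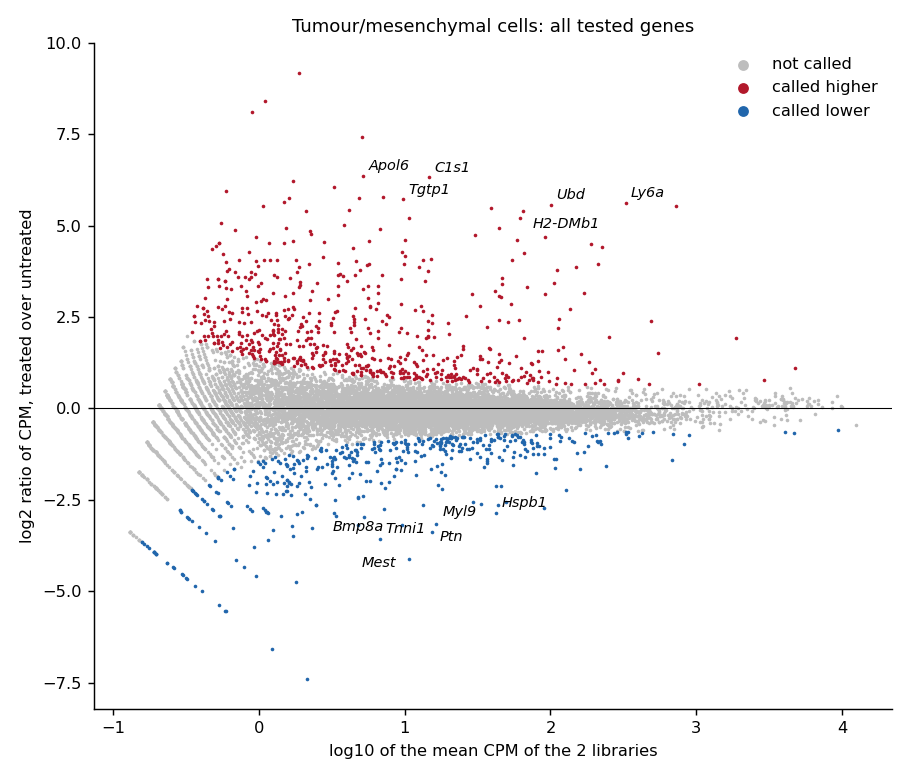
Log2 ratio of CPM, treated over untreated (y axis), against the log10 of the mean CPM of the 2 libraries (x axis) for each of 13224 genes tested in tumour/mesenchymal cells, with 645 genes called higher in red, 451 called lower in blue and the others in grey. The 12 genes of the naming rule are labelled, from Apol6 at 6.37 to Mest at -4.13.

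Complement and chemokine genes were higher in part in tumour/mesenchymal cells. Of 16 complement genes 8 were called higher, none lower and 8 neither, including C3, the central complement component, at 14 and 0.25 CPM (5.78), and C4b at 13.1 and 0.434 (4.90). Of 24 chemokine and colony-stimulating factor genes 13 were called higher, 3 lower and 8 neither. Cxcl9 was at 85.4 and 2.77 CPM (4.94), Cxcl10 at 86.0 and 16.8 (2.36), the monocyte attractants Ccl2 at 193 and 35.3 (2.45) and Ccl8 at 26.9 and 1.97 (3.77), and Cxcl16 at 33.1 and 6.53 CPM. The neutrophil attractants Cxcl1, at 45.5 and 86.8 CPM (-0.93), and Cxcl2, at 0.667 and 4.30 (-2.63), were lower, as was Cxcl14 (-2.63). Ccl5 was at 399 and 103 CPM (1.96), and in the cells with the neomycin-resistance transcript at 375 and 85.8.

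The type I interferon response list was higher in part: 13 of 18 measured genes were called higher and none lower, with a median of 1.38. Bst2, which tethers budding virus particles to the cell surface, was at 236 and 35.7 CPM (2.72), and Isg15 at 62.5 and 35.4 (0.82). Ifit1 was not called, at 12.4 and 14.2 CPM, nor were Ifit2, Rsad2 and Oasl1. Genes of cell death held 5 called higher of 24 and none lower, among them Zbp1, a nucleic acid sensor, at 94.5 and 13.1 CPM (2.85), Casp1 (3.63) and the death receptor Fas at 10.9 and 4.90 (1.16). Cd274, the ligand of PD-1, was at 2.21 and 0.513 CPM (2.10), with a UMI in 5.09% against 0.678% of the cells, and Pvr, the ligand of TIGIT and CD226, was at 33.0 CPM in both. The lymphocyte genes Pdcd1, Cd28, Icos, Lag3, Cd226 and Cd96 were also called higher in this class, beside the T cell marker sum given above, and the part of those markers in these calls was not tested.

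Part of the growth and matrix genes were lower in tumour/mesenchymal cells. Of 21 measured growth factor and developmental genes 8 were called lower, 1 higher and 12 neither, with a median of -0.40. Mest, an imprinted gene of mesodermal tissue, was at 1.13 and 20.2 CPM, 17.5-fold lower, the growth factor gene Ptn at 2.67 and 28.2 (-3.39), Igfbp5 at 23.8 and 158 (-2.73) and the Notch target Hes1 at 76.6 and 242 (-1.66). Fgf7 was higher, at 4.11 and 0.854 CPM (2.26). Of 24 matrix genes outside the class markers 11 were called lower, 1 higher and 12 neither, with a median of -0.66: Col1a1 at 52.4 and 161 CPM (-1.62) and Tnc, tenascin C, at 36.5 and 123 (-1.76), while the collagen crosslinking enzyme Lox was higher at 32.4 and 17.7 (0.87). The other genes with the lowest ratios were Tnni1 at 1.03 and 12.5 CPM, Myl9 at 3.29 and 29.4, Bmp8a at 1.85 and 17.2, and Hspb1, a small heat shock protein, at 10.3 and 74.4.

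Of 21 immediate early and dissociation stress genes, 13 were called lower and 1 higher in tumour/mesenchymal cells, with a median of -1.02. Fos was at 120.3 and 360.3 CPM (-1.58), Egr1 at 45.6 and 107 (-1.24), Dusp1 at 58.4 and 152 (-1.38) and Nr4a1 at 8.42 and 50.1 (-2.57). These genes respond to growth factor signals and also to enzymatic dissociation, and which of these lies behind the difference was not tested. Cell cycle genes were not lower: of 28 genes 1 was called higher and none lower, and after thinning 13.6% against 12.6% of the cells had UMIs of at least 2 of 10 proliferation genes. Of 24 glycolysis and hypoxia genes 5 were called higher and none lower, and of 27 oxidative phosphorylation genes 1 was called lower. Apobec1, an RNA and DNA cytidine deaminase, was at 9.19 and 4.56 CPM (1.01) and was called higher, and Apobec3 was not called, at 45.8 and 31.8 (0.53).

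In macrophages and monocytes, 4.37% of 11389 genes were called higher and 5.04% lower (498 and 574 genes), and the median over all genes was -0.09. Tumour markers in these cells summed to 223 (treated) and 558 CPM (untreated), and T cell markers to 141 and 21.6 CPM. Restricting the calls to genes whose CPM in this class was at least 0.5 of that over all cells, the same filter, left 395 higher and 205 lower. All 16 measured GBP and IRG genes were called higher, with a median of 2.36, for example Gbp2b at 207 and 19.2 CPM (3.43) and Iigp1 at 236 and 40.1 (2.56). Irf1 was at 104 and 30.3 CPM (1.78) and Ciita at 116 and 29.8 (1.96), and 18 of 22 class I and 8 of 10 class II genes were called higher, none lower. Type I interferon genes were not: of 19 measured, 1 was called higher and 1 lower, with a median of 0.13.

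**Figure D4:**
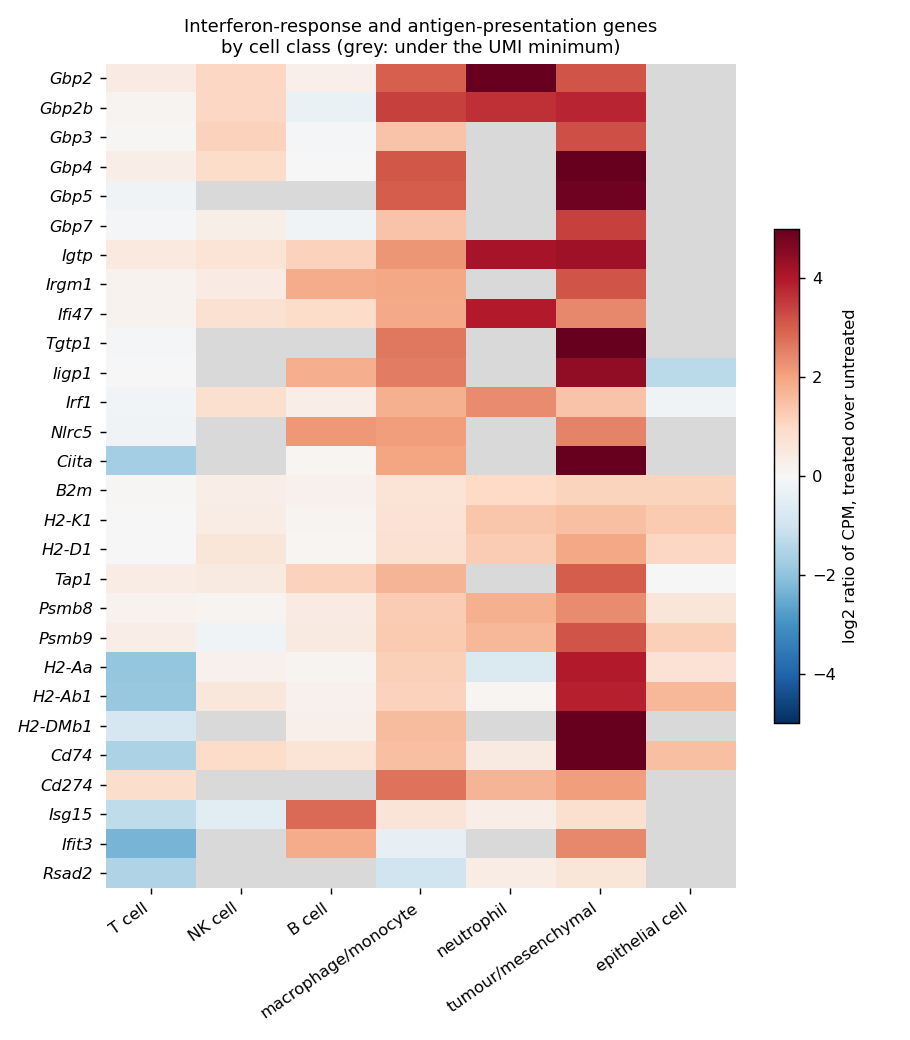
Log2 ratio of CPM, treated over untreated (colour, from -5 in blue to 5 in red, with larger ratios shown at the end of the scale), for 28 interferon-response and antigen-presentation genes (rows) in 7 cell classes (columns), with grey where a gene was under the minimum of 20 UMIs. GBP and IRG genes are red in macrophages and monocytes and in tumour/mesenchymal cells (Iigp1 at 2.56 and 4.42) and pale in T cells.

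Genes of macrophage activation were mostly higher: 14 of 18 were called higher and 1 lower, with a median of 1.5. Nos2, which makes nitric oxide from arginine, was at 20.8 and 0.254 CPM (6.14), and Arg1, which cleaves the same amino acid, at 1215 and 137 CPM (3.15) with a UMI in 63.0% against 5.61% of cells. Acod1, which makes itaconate, was at 68.2 and 1.19 CPM (5.80), and Il1b, coding for an inflammatory cytokine, was lower at 60.3 and 148 (-1.29). Tnf was not called, at 15 and 13.4 CPM. The opposing enzymes of arginine use were thus both higher, as summed levels over the class.

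The genes with the highest ratios in macrophages and monocytes were Ly6a at 531 and 5.42 CPM (6.6), its neighbour Ly6i at 52.8 and 0.593 (6.38), Tarm1, an activating receptor of myeloid cells, at 9.86 and 0.0846 from 1 untreated UMI (6.29, 4.34 to 12.19), Nos2, Acod1 and Pdcd1lg2. Both PD-1 ligands were higher: Cd274 at 32.2 and 4.91 CPM (2.70), with a UMI in 21.1% against 1.93% of cells, and Pdcd1lg2 at 38.6 and 1.10 (5.08), in 22% against 0.417%. The CD28 and CTLA-4 ligands were not called, with Cd80 at 3.92 and 5.59 CPM and Cd86 at 61.3 and 101. Among macrophages and monocytes without any UMI of lymphocyte or tumour markers, a restriction chosen after seeing the data, 125 of 787 and 684 of 2640 cells remained. In them Ly6a was at 601 and 3.72 CPM, Nos2 at 32.2 and 0.413, and Arg1 at 1286 and 154.

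Chemokine genes in macrophages and monocytes held 9 called higher and 4 lower of 23. Ccl8 was at 4012 and 336 CPM (3.58), Cxcl9 at 691 and 80.2 (3.11) with a UMI in 62.8% against 8.90% of cells, Cxcl10 at 276 and 62.7 (2.13) and Ccl6 at 1050.2 and 315 (1.74). The neutrophil attractants Cxcl1 (-2.98) and Cxcl2, at 122 and 310.1 CPM (-1.34), were lower, in the same direction as in tumour/mesenchymal cells. Complement genes outside the C1q markers were higher in 7 of 11 measured and lower in none, with C3 at 211 and 12.4 CPM (4.08).

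Most genes of the resident macrophage list were lower, and part of the monocyte list was higher. Of 19 resident and microglia-like genes 14 were called lower and 1 higher, with a median of -1.18: Fcrls, an Fc receptor-like gene of microglia, at 5.4 and 344 CPM (-5.97) with a UMI in 3.18% against 48.5% of cells, Tmem119 at 13.1 and 121 (-3.20), Selenop at 531 and 1555 (-1.55) and the fractalkine receptor Cx3cr1 at 249.8 and 468 (-0.91). Of 9 monocyte genes outside the class markers 5 were called higher and none lower, including Plac8 at 587 and 71.4 CPM (3.04) and Cebpb at 333 and 114 (1.55). Ccr2, the receptor with which monocytes leave the bone marrow, was not called, at 250.2 and 354 CPM. The monocyte markers Ly6c2 and Chil3 were at 204 and 17.7 and at 25.9 and 1.69 CPM. Whether these levels reflect other cells in the class or other expression per cell was not tested.

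Further groups of macrophage and monocyte genes differed. Of 24 glycolysis and hypoxia genes 17 were called higher and none lower, with a median of 0.87, among them the glucose transporter Slc2a1 (1.41), Aldoa at 1381 and 619 CPM (1.16) and Ldha at 1093 and 705 (0.63). Apoe, a lipid carrier, was lower at 9217 and 19169.6 CPM (-1.06), as was Spp1, osteopontin, at 571 and 1304 (-1.19), while Lgals3 was higher at 2072 and 907 (1.19) and Trem2 was not called at 533 and 623. Immediate early genes held 11 called lower of 21 and none higher, with Fos at 372 and 995 CPM (-1.42) and Nr4a1 at 6.89 and 54.3 (-2.96). Of 29 matrix genes 18 were called lower, with a median of -2.69, beside the lower tumour marker sum of 223 against 558 CPM. The remaining genes with the lowest ratios were Slco2b1 at 0.676 and 23.3 CPM, Rapsn at 3.78 and 33.3, and Rgs18 at 2.57 and 17. In the KPB25Luv model Ly6a in this class was at 2070 and 43.4 CPM (5.57), Ly6i at 923 and 14.4, Nos2 at 45.5 and 6.92 and Fcrls at 9.11 and 318 (-5.01), in the same directions, while Nr4a1 was at 37.9 and 31.0.

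In T cells few genes were called. Of 10559 genes 0.540% were called higher and 1.58% lower (57 and 167 genes), and with each cell weighted equally (the mean of per-cell CPM) the split was 101 higher and 151 lower. The 327 untreated T cells held 666707 UMIs, against 76078106 in untreated tumour/mesenchymal cells, and fewer UMIs widen the intervals. A point ratio beyond 2-fold held for 1422 of 10559 genes in T cells and for 1333 of 13224 in tumour/mesenchymal cells. The counts called are therefore not compared between classes. Beside these calls, the 12 macrophage markers summed to 118 and 160.5 CPM and the 14 tumour markers to 59.5 and 183 CPM in T cells. The GBP and IRG genes, which separated the libraries in tumour cells and macrophages, held no call among 16 measured, with a median of 0.09, and class I genes held none of 22. After thinning, 21.8% of treated and 18.1% of untreated T cells had UMIs of at least 2 GBP or IRG genes. Of 18 type I interferon genes 3 were called lower, Ifit1 (-1.87), Ifit3 (-2.33) and Isg15, at 37.8 and 90.0 CPM (-1.26).

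Cytotoxic effector genes were higher in part in T cells. Of 17 genes 5 were called higher and none lower, with a median of 0.33, or 0.10 with genes of a library at 0 set to their bound. Gzmb, granzyme B, was at 649 and 150 CPM (2.11), Gzma at 171 and 43.5 (1.95) and Prf1, perforin, at 117 and 31.5 (1.86). Ifng was not called, at 104 and 96.0 CPM (0.10, -0.25 to 0.50), nor was Nkg7, at 2153 and 2221. The CPM of interferon-gamma in T cells was thus within counting error of the untreated value, while T cells were 15.1-fold more frequent. Other genes with the highest ratios were Ifitm1, an interferon-induced transmembrane protein, at 717 and 6.0 CPM from 4 untreated UMIs (6.73), Ifitm2 at 342 and 45.0 (2.90), Gstm5 at 35.6 and 1.5 from 1 untreated UMI (3.99, 2.09 to 9.88), Trib2 at 26.3 and 1.5, also from 1 (3.55, 1.65 to 9.44), and Lgals3, galectin-3, at 1001 and 238 (2.07).

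Of the antibody targets, Pdcd1 showed little difference in T cells, at 279 and 286 CPM (-0.04, -0.25 to 0.18). Ctla4 was at 49.8 and 85.5 CPM (-0.79, -1.17 to -0.36), lower beyond counting error but not called, because its interval reached inside 1.5-fold. A Ctla4 UMI was seen in 14.1% against 13.5% of T cells. In CD8 T cells Ctla4 was called lower (-1.49, -2.18 to -0.64). Lag3 was at 123 and 114 CPM in T cells (0.10). Of 19 checkpoint genes 1 was called lower and none higher, Cd160, at 20.9 and 67.5 CPM (-1.70). Over all cells Pdcd1 was at 86.9 and 2.65 CPM, with a UMI in 22.1% against 1.41% of cells, and T cells held 95.1% and 74.6% of its UMIs. The all-cell level of Pdcd1 thus moved with the share of T cells.

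Part of the regulatory T cell list was lower. Of 12 genes measured in T cells 6 were called lower, none higher and 6 neither, with a median of -1.08, and in CD8 T cells, which are not regulatory T cells, the same list had 4 of 11 called lower and 1 higher, with a median of -1.12. In all T cells the lower genes included Foxp3, the lineage factor, at 15.8 and 40.5 CPM (-1.38), Ikzf2 at 124 and 295 (-1.26) and Tnfrsf18, which encodes GITR, at 161 and 361 (-1.17). By cell, 117 of 2940 treated T cells, 3.98%, had a Foxp3 UMI and none of Cd8a or Cd8b1, against 18 of 327, 5.50%. T cells with both Foxp3 and Cd8a or Cd8b1 UMIs were not counted here. After thinning, which kept 2892 and 265 T cells, the shares were 1.83% (1.38% to 2.39%) and 4.15% (2.09% to 7.31%). The interval ends of these 2 shares overlapped. CD8 T cells, with Cd8a or Cd8b1 UMIs and none of Cd4, were 52.3% (50.5% to 54.1%) against 43.4% (38.0% to 49.0%) of T cells, and 45.6% against 40.8% after thinning. CD4 T cells without Foxp3 were 15.9% against 7.95%, and 7.99% (7.03% to 9.04%) against 6.04% (3.49% to 9.62%) after thinning. Because a transcript is missed more often in shallow cells, 23.3% of treated and 42.2% of untreated T cells had neither Cd4, Cd8a, Cd8b1 nor Foxp3.

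Genes of naive and memory lymphocytes held 3 called higher of 12 in T cells, namely the transcription factor Lef1 at 131 and 36.0 CPM (1.83), the lymph node homing receptor Ccr7 at 85.5 and 37.5 (1.16), and Dapl1 (1.49). Tcf7, at 82.7 and 43.5 CPM, was not called. The genes with the lowest ratios were Dusp1, a MAP kinase phosphatase, at 72.4 and 306 CPM (-2.08), Cd7 at 65.5 and 262 (-2.01), the chemokine Ccl5 at 1862 and 6700.1 (-1.85), Xcl1, which attracts cross-presenting dendritic cells, at 141 and 453 (-1.69), H2-Ab1 at 87.4 and 322 and Cst3 at 274 and 850.4. The H2-Ab1 and Cst3 levels went against the shares of T cells with a UMI, which were higher in the treated library (22.9% against 7.65% for H2-Ab1), so no order is read from them.

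Among CD8 T cells, 0.661% of 9676 genes were called higher and 1.03% lower (64 and 100 genes), or 99 higher and 87 lower with each cell weighted equally. Gzmb was at 959.9 and 179 CPM (2.41), with a UMI in 51.8% against 18.3% of cells, Lgals3 at 1373 and 263 (2.38), Ifitm2 at 483 and 35.7 (3.69), and Ifitm1 at 1103 and 3.25 from 1 untreated UMI (7.82, 5.93 to 13.71). Gstm5 and the cell cycle inhibitor gene Cdkn1a had no UMI in the 142 untreated CD8 T cells and were at least 5.47-fold and at least 4.78-fold higher, taking 3 counts over the group as the floor. The chemokine genes Ccl4 at 233 and 1681 CPM (-2.85), Ccl3 at 81.8 and 422 (-2.37), Ccl5 at 2399 and 10383 (-2.11) and Xcl1 at 85.4 and 428 (-2.33) were lower, with Dusp1 and Ifi27l2a. For Ccl4 the share of CD8 T cells with a UMI went against its level, at 33.0% in the treated and 28.9% in untreated cells, so no order is read from it. Of the 15 chemokine and colony-stimulating factor genes measured in CD8 T cells these 4 were called lower, 1 higher and 10 neither.

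Checkpoint and metabolic genes of CD8 T cells also differed. Tox, a transcription factor of chronically stimulated T cells, was at 41.3 and 133 CPM (-1.71), Ctla4 at 20.1 and 55.2 (-1.49), and Cd160 (-1.49) was lower too, while Pdcd1 was not called at 304 and 338 (-0.16). Of 21 glycolysis and hypoxia genes 5 were called higher and none lower, with a median of 0.65: Eno1 (2.15), Aldoa (1.30), Tpi1 (1.19), Pgk1 (0.90) and Gapdh (0.83). Of 11 interferon-inducible membrane and ubiquitin-like genes 7 were called higher, with Ly6c2, a memory and effector marker of CD8 T cells, at 1492 and 568 CPM (1.39) and Ly6a at 464 and 221, while 4 of 15 type I interferon genes were called lower and none higher.

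In NK cells, 2.55% of 6399 genes were called higher and 1.48% lower (163 and 95 genes). Cytotoxic effectors were higher in 8 of 14 measured genes and lower in none, with a median of 1.10: Gzma at 13065 and 6508 CPM (1.01), Gzmb at 1696 and 739 (1.20) and Prf1 at 899 and 246 (1.86). Gzmc was at 2638 and 187 CPM (3.82), although it had a UMI in 10.7% against 13.1% of NK cells, so its summed level was held by few cells. Ccl5 was at 20171 and 1687 CPM (3.58), with a UMI in 91.3% against 50.8% of NK cells, Ccl3 at 316 and 17.6 (4.12) and Ccl4 at 493 and 123 (2.00), while Xcl1 was not called at 874 and 1258. In Ccl5, NK cells and T cells thus had ratios of opposite sign, a difference that was not tested.

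Genes of circulating and mature lymphocytes were higher in NK cells: 5 of 8 measured in the naive and memory list were called higher and none lower, with Klf2, a factor of quiescence and egress, at 875 and 129 CPM (2.76). Ly6c2 was at 950.5 and 99.7 CPM (3.25), Cma1, a chymase gene that is also 1 of the mast cell markers, at 186 and 9.39, and Rasgrp2, an activator of integrin signalling, at 95.8 and 7.04. Cell cycle genes were lower in 10 of 25 measured and higher in none, with a median of -0.99: Mki67 at 16.8 and 65.7 CPM (-1.92), Birc5 at 40.1 and 161 (-1.98), Tk1 at 11.7 and 89.2 (-2.87), Pclaf at 90.6 and 324 (-1.83) and Cdca8 at 16.8 and 76.3 (-2.14). After thinning, 1.36% (0.372% to 3.45%) of treated and 8.18% (5.41% to 11.8%) of untreated NK cells had UMIs of at least 2 of 10 proliferation genes, while in T cells the shares were 12.1% and 10.9%. Osbpl1a was also lower, at 7.77 and 59.8 CPM, and Pacsin1, also 1 of the plasmacytoid dendritic cell markers, was at 0 and 68.0 CPM, at least 17.5-fold lower. T cell markers summed to 117 and 91.5 CPM, macrophage markers to 150.2 and 115 CPM and tumour markers to 67.3 and 163 CPM in NK cells.

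In B cells, 0.464% of 6247 genes were called higher and 0.688% lower (29 and 43 genes). Il4i1, a secreted amino acid oxidase, was at 195 and 31.9 CPM from 4 untreated UMIs (2.45), the adaptor gene Samsn1 at 286 and 63.7 (2.08), Ms4a4c at 275 and 71.7, Serpinb1a at 451 and 143 (1.62), Plac8 at 626 and 215 (1.52), and the class I gene H2-T23 at 109 and 7.97 from 1 untreated UMI (3.19, 1.27 to 9.08). Of 18 B cell activation and maturation genes 3 were called higher and 1 lower: Cd83, an activation marker, at 519.8 and 191 CPM (1.41), Fcer2a, the low-affinity IgE receptor CD23, at 321 and 119 (1.38), and Ighg1, at 92.5 CPM with no untreated UMI, were higher, and Ighg3 was lower. For Ighg1 the untreated floor of 3 counts was 23.9 CPM. Ighg1 and Ighg3 were also leading genes of the treated plasma cells, which were 38 against 2 cells. Plasma cell markers summed to 524 and 661 CPM in B cells, and the part of plasma cell RNA in these values was not tested. Apoe was at 590.3 and 4596 CPM (-2.96), Zbtb20, a factor of B cell differentiation, at 79.5 and 414 (-2.39), and the immediate early and stress genes Dusp1 at 170 and 733, Btg2 at 206 and 502, Tsc22d3 at 423 and 884 and Fos at 261 and 566. The T cell markers summed to 145 and 7.97 CPM in B cells, with 3 of the 4 at 0 in the untreated library, macrophage markers to 184 and 191 CPM and tumour markers to 77.6 and 255 CPM. GBP and IRG genes held no call among 10 measured.

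Neutrophils and epithelial cells were few, and their values rest on 53 and 193 and on 50 and 57 cells. In neutrophils 4.04% of 1781 genes were called higher and 2.75% lower (72 and 49 genes), or 70 and 28 with the filter on class CPM. All 4 measured GBP and IRG genes were higher, with Gbp2 at 275 and 4.32 CPM, Gbp2b at 512 and 38.9, Igtp at 337 and 17.3 and Ifi47 at 362 and 21.6, as were Cd274 at 237 and 73.5 (1.69) and 8 of 12 class I genes, none of which was lower. Plac8 was at 2435 and 268 CPM, Ly6c2 at 662 and 104, Ltb, the lymphotoxin beta gene, at 1062 and 199, and Psmb8 at 687 and 199, with Tmsb10 and Limd2 also among the highest, and the lipid droplet gene Hilpda was lower (-3.67, from 4 and 165 UMIs). Foreign transcripts moved with these groups: T cell markers summed to 787 and 73.5 CPM, macrophage markers to 674 and 2374 and tumour markers to 62.4 and 1033, and Apoe, Fn1, C1qa, C1qb and Ctsl, genes of macrophages or matrix, were the other genes with the lowest ratios. The part of those cells in the neutrophil values was not tested.

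In epithelial cells 2.06% of 5527 genes were called higher and 2.37% lower (114 and 131 genes), or 210 higher and 159 lower with each cell weighted equally. Defb1, an epithelial antimicrobial peptide, was at 432 and 4.35 CPM from 2 untreated UMIs (6.31, 4.77 to 9.69), Dnajc12 at 201 and 15.2 with a UMI in 84.0% against 12.3% of cells, Dcn at 509.7 and 47.8 and Gatb at 251 and 23.9, and Upk3a, a uroplakin, was at least 17.3-fold higher and Fam90a1a at least 22.4-fold. Sprr1a, a cornified envelope protein, was at 0 and 263 CPM, at least 52.8-fold lower, Aoc1, an amine oxidase, at 11.6 and 956, Pcp4 at 136 and 3169, Tph1 at 21.6 and 583, Tmem86a at 8.30 and 287, and the protease inhibitor Slpi at 3.32 and 165. Class I genes were higher in 7 of 18 measured and lower in none, with H2-K1 at 852 and 346 CPM and B2m at 3701 and 1730.4. The only GBP or IRG gene measured was called lower (-1.36), and of 5 type I interferon genes 1 was lower and none higher. Glycolysis and hypoxia genes were lower in 9 of 16 and higher in 1, with Ndrg1 at 16.6 and 263 CPM (-3.92). T cell markers summed to 99.6 CPM in the treated library and were all at 0 in the untreated one, and tumour markers to 499.7 and 1074 CPM.

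Some genes were called in the same direction in several of the 7 classes. Counting only genes whose class CPM was at least 0.5 of that over all cells, 33 were higher and 13 lower in at least 3 classes. Plac8 was higher in 5 classes, with log2 ratios of 1.15 in T cells, 0.92 in NK cells, 1.52 in B cells, 3.04 in macrophages and monocytes and 3.18 in neutrophils. Dusp1 was lower in 5 classes, at -2.08, -1.16, -2.11, -1.26 and -1.38 in T cells, NK cells, B cells, macrophages and monocytes, and tumour/mesenchymal cells. Class I genes were shared by the non-lymphoid classes: H2-T22, H2-D1, H2-K1, Psmb9 and B2m were each higher in macrophages and monocytes, neutrophils, tumour/mesenchymal and epithelial cells, with B2m at 0.69, 1.0, 1.11 and 1.10. Without that filter the widest sets also held Ms4a4b higher in 6 classes, Ccl5 and Ccl8 in 5, Sparc lower in 7 and Col3a1 lower in 6, beside the T cell and tumour marker sums given for each class.

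Over all cells, 14.8% of 15064 genes were called higher and 12.3% lower (2230 and 1852 genes), which includes the different make-up of the libraries. The classes that held the UMIs of signalling genes differed accordingly. Ifng was counted 254 times per 1000 treated cells and 13.9 times per 1000 untreated cells, and T cells held 91.1% of its UMIs in the treated library, against 44.8% in T cells and 35% in NK cells in the untreated one. Gzmb UMIs lay 81.6% in T cells after treatment and 60.2% in NK cells without it. Ccl5 UMIs lay 43.3% in T cells and 26.5% in NK cells after treatment, and 45.7% in tumour/mesenchymal cells without it. T cells thus held the largest part of all of these transcripts in the treated library, while in the untreated one this held for Ifng but not for Gzmb or Ccl5.

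For myeloid products the holding class was mostly the same in both libraries. Macrophages and monocytes held 72.4% and 74.9% of Cxcl9 UMIs, which were 1151 and 123 per 1000 cells, 95.3% and 87.3% of Ccl8 UMIs, and 94.7% and 92.1% of Arg1 UMIs. Cxcl10 UMIs lay 51.6% in macrophages and monocytes after treatment and 56.9% in tumour/mesenchymal cells without it. Lag3 UMIs lay 88.3% in T cells after treatment and 42.1% in macrophages and monocytes without it. Of the ligands, 54.0% of Cd274 UMIs after treatment lay in macrophages and monocytes, and Pdcd1lg2 UMIs lay 47.3% in T cells and 40.1% in macrophages and monocytes. Ido1, an enzyme of tryptophan breakdown, had 64.1% and 88.9% of its UMIs in the few epithelial cells, in which it was lower after treatment, at 302 and 1654 CPM (-2.45).

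**Figure D5:**
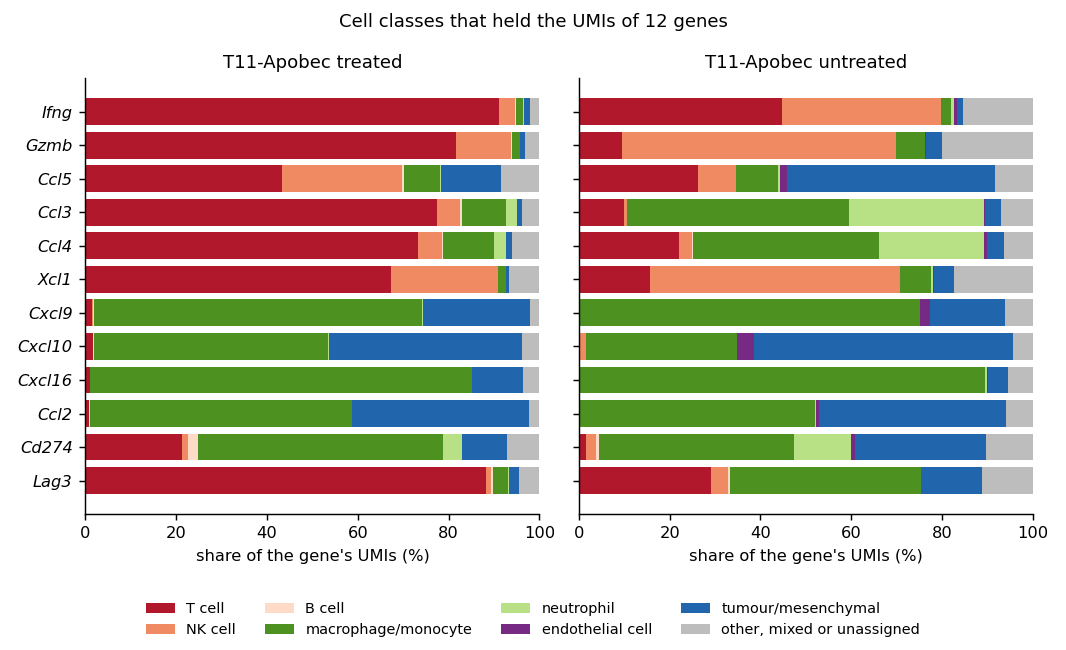
Share of each gene's UMIs (x axis, percent) held by each cell class (colours) in the treated (left) and untreated (right) T11-Apobec library for 12 genes (rows). T cells hold 91.1% of treated and 44.8% of untreated Ifng UMIs, and macrophages and monocytes hold 72.4% and 74.9% of Cxcl9 UMIs.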

How the data were processed

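The files hold raw UMI counts per gene and cell of 10x 3′ v2 libraries, deposited by the authors after Cell Ranger and the mm10 genome (per the submitters' processing notes; the matrices name software version 3.0.2, per the file headers). An added feature counts the neomycin-resistance transcript. From these counts, cells were filtered as stated, and each cell went to the class with the most marker UMIs: at least 3 UMIs from at least 2 genes, and at least 2 times those of every other class. Endothelial, pericyte and fibroblast cells with at least 4 own marker genes were not held against the tumour list; other cells were mixed or unassigned. Ly6c2 was not scored. These gate numbers were set after seeing the data. Members, gene lists and classes were chosen with earlier results of these data known. Monocytes with few marker UMIs can remain unassigned.

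Log2 ratios used a prior of 0.5 UMIs. Classes needed at least 50 cells per library. Genes were named per class by ranking on whichever bound of the interval was closer to 0 and taking the 6 top and 6 bottom genes, provided that the library with the higher level had 50 or more UMIs, 5% or more of its class cells had a UMI, and the class had a CPM at least 0.5 times the all-cell CPM; class markers, mitochondrial, ribosomal, haemoglobin, sex-specific, immunoglobulin and T cell receptor segment, histone and unnamed genes were left out. Doublets were not removed; Scrublet's automatic cut marked 1 and 332 cells, and removal of 301 and 852 cells, at an assumed 0.8% per 1000 cells, was tried as an alternative. The calls were also run on simulated sums with counting error alone. That setting holds no spread between cells or animals, so it cannot show how the calls fare under such spread. The work used scanpy 1.11.5, SciPy 1.17.1, Matplotlib 3.10.9 and pandas 2.3.3 under Python 3.11.15, with NumPy 2.4.6. Some genes of the lists are not reported here.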

Additional observations from a re-analysis of the deposited data

Results flagged for a closer look

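Of 96 named values, 60 could also be compared in the KPB25Luv model, and 7 of these were called in opposite directions in the 2 models. With 1 library per group the difference between the models was not tested. Ifitm2 in T cells had a log2 ratio of 2.90 in T11-Apobec and -0.90 in KPB25Luv (88.6 and 165 CPM in treated and untreated cells). Dusp1 in T cells was at -2.08 in T11-Apobec and 0.75 in KPB25Luv (182 and 108 CPM), and Cd7 in T cells at -2.01 and 0.98 (346 and 176 CPM). The other 4 were in CD8 T cells. Ccl4 was at -2.85 in T11-Apobec and 3.18 in KPB25Luv (334 and 36.8 CPM), Ccl3 at -2.37 and 2.47 (80.6 and 14.4 CPM), Ccl5 at -2.11 and 0.75 (1384 and 822 CPM), and Ifi27l2a at -1.56 and 1.74 (800 and 239.8 CPM). For Ccl4 the share of T11-Apobec CD8 T cells with a UMI went against its level (33.0% treated, 28.9% untreated). No order was read from Ccl4 in T11-Apobec, so its opposite direction is less certain.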

How the results depend on the processing

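No paired analysis was possible because each group was 1 library. Of 468 recomputed values of named genes, 438 kept their call, 30 lost it and none changed sign. Log2 ratios of shares moved as follows. A stricter class rule (at least 6 UMIs, 3 times every other class) gave 4.44 for T, 1.05 for NK and 4.36 for B cells. Cells thinned to 1000 UMIs gave 4.26 for T cells, 0.98 for NK cells, 4.90 for B cells, -1.16 for macrophages and monocytes, -0.26 for neutrophils, -1.32 for fibroblasts and -2.58 for tumour/mesenchymal cells. Cells under 1000 UMIs were left out of the thinned set. At least 500 genes per cell gave 4.52 for B cells and -0.50 for neutrophils, and at most 5% mitochondrial UMIs gave -1.22 for macrophages and monocytes and -2.34 for tumour/mesenchymal cells. As shares of immune cells the ratios were 2.73 for T, 2.13 for B and -0.52 for NK cells, where the sign turned, -2.18 for macrophages and monocytes, -2.29 for neutrophils, -2.16 for dendritic cells and 1.27 for plasmacytoid dendritic cells. Counts of called genes were 224 in T, 258 in NK and 72 in B cells, 1072 in macrophages and monocytes, 121 in neutrophils, 1096 in tumour/mesenchymal cells, 245 in epithelial cells and 164 in CD8 T cells. In the order of the classes changed, a minimum of 100 UMIs gave 145 for T, 106 for NK and 43 for B cells, 686 for macrophages and monocytes, 39 for neutrophils and 129 for epithelial cells. Thinning gave 82, 145, 34, 366, 29, 236, 42 and 53 in the order of the main counts. A point ratio beyond 2-fold gave 1422 for T, 683 for NK and 1212 for B cells, 358 for neutrophils, 661 for epithelial and 1801 for CD8 T cells. The stricter class rule gave 44 for B cells, a class CPM of at least 0.5 of that over all cells (chosen after seeing the data) 600 for macrophages and monocytes, a minimum of 5 UMIs 193 for neutrophils, and the mean of per-cell CPM 369 for epithelial cells. Fewer UMIs or genes enter under thinning and the higher minimum; for the other settings the cause was not tested. Of 1463 recomputed list medians, 1341 stayed within 1.5-fold of the main value and 118 moved further, 39 of them under thinning and 20 at 100 UMIs. Another 4, beyond 1.5-fold in the main setting, changed sign: chemokine receptors (-0.02) and follicular helper genes (-0.39) in tumour/mesenchymal cells at 100 UMIs, checkpoint genes there after thinning (-0.02), and macrophage activation genes in B cells at 5 UMIs (-0.02). Depth limits every class: each called fewer genes once thinned.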

Other observations

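A small set of cells carried genes of osteoclasts, the bone-resorbing cells of the macrophage lineage. Cells with UMIs of at least 4 of 6 such genes (Ctsk, Acp5, Atp6v0d2, Mmp9, Dcstamp and Ocstamp), a set chosen after seeing that Acp5 led the mixed cells of both libraries, were 12 of 6131, 0.196% (0.101% to 0.342%), in the treated and 32 of 10321, 0.310% (0.212% to 0.437%), in the untreated library. Of them 4 and 10 were among the 151 and 213 cells with markers of several classes. In these cells Acp5 was at 8550.2 and 14128 CPM and Ctsk, cathepsin K, at 5986 and 7296 CPM.

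The cells without a class also had leading genes of known cells. Unassigned cells were 179 in the treated library, led by Gzma, Txk and Ccl5 with a median of 1280 UMIs, and 281 in the untreated library, led by Ltb, Xcl1 and Nkg7 with a median of 1075 UMIs. A high doublet score was found in 34.4% and 67.1% of the mixed cells, in 4.86% and 0.612% of T cells and in 2.54% and 9.05% of tumour/mesenchymal cells.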
